A study of Mus musculus with 8 samples.

Results

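Nkx6-3 and 5 related genes of the Nkx homeobox family were followed in the fetal mouse small intestine with and without Rfx6, a transcription factor needed for the formation of islet and intestinal endocrine cells. The genes were Nkx6-3, Nkx6-1, Nkx6-2, Nkx2-3, Nkx2-5 and Nkx3-2, taken as every array probe whose gene name matched one of these symbols. They are 6 of the 36161 gene names on the array and are read by 7 of its 55681 gene probes. The group was chosen by the processed signal and detection of these probes in the control and the Rfx6 knockout, in which Nkx6-3 stood out as low, so the differences between the groups of these 6 genes are given as descriptions, with no test.

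Small intestine was taken at stage E18.5, shortly before birth, from wild-type mice (Rfx6+/+, labelled control, 4 arrays) and from homozygous Rfx6-/- mice (labelled Rfx6 knockout, 4 arrays). The null allele had been made by crossing mice with a floxed Rfx6 allele to the CMV-Cre deleter strain, and heterozygotes were then intercrossed, so that all cells of the knockout lacked the gene. No strain background or sex is given. Whole-tissue total RNA was read on 1-colour 60-base Agilent arrays, so a lower signal from fewer cells of a type and a lower signal from less RNA per cell cannot be told apart. Each sample carries its own number, but nothing says how many litters were used, and all spreads and p-values are those between these 8 samples.

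The Nkx genes encode homeodomain transcription factors of the NK class, which bind DNA and set regional and cell identity in many organs of the embryo. In the gut they divide between the layers. Nkx6-3 belongs to the epithelium of the distal stomach and the first stretch of the duodenum, where it is known for its part in the balance of gastrin (G) and somatostatin (D) cells. Nkx2-3, Nkx2-5 and Nkx3-2 belong to the mesenchyme, the layer that forms muscle and connective tissue.

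The probes are shown first, because 2 of them read the same gene and only 1 of those gave a usable signal, so the result for Nkx6-3 rests on 1 sequence. Each probe is 60 bases long and was printed once on each array. The first 30 bases are given, 5′ to 3′ in the sense of the transcript, as the scanner files hold them.
Nkx6-3 probe 1: caccaaggcaacccagggcatccatcagag
Nkx6-3 probe 2: gccctgctctaaagtgagcaggcttatttt
Nkx6-1: cagtatcctggctgctcgccgggcctttac
Nkx6-2: ccgatcactttgtataatcaataaattatt
Nkx2-3: ggcatggaactcagcggaggaaaggatgcc
Nkx2-5: acccgtatttatgtttttacctgttgtaag
Nkx3-2: aaagtggccgtaaaggtgctggtgcgtgac

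Positions are those of the array's own mm9 annotation. The Nkx6-3 probes map to chr8:24268914-24268973 (probe 1) and chr8:24268527-24268586 (probe 2), both on the plus strand. They start at bases 1729 and 1342 of the transcript NM_029002, and their 387-base distance is the same in the transcript and on the chromosome, as it would be within a single exon. The Nkx6-1 probe (NM_144955) lies at chr5:102088319-102088378 and the Nkx3-2 probe (NM_007524) at chr5:42152989-42153048, both on the minus strand. The Nkx6-2 probe (NM_183248) lies at chr7:146767119-146767178 and the Nkx2-5 probe (NM_008700) at chr17:26975621-26975680, also on the minus strand. The Nkx2-3 probe (NM_008699) lies at chr19:43689699-43689757 on the plus strand. Exon and UTR limits of these genes in mm9 were not used here. The share of G and C bases ran from 36.7% for Nkx2-5 to 55.0% for Nkx6-3 probe 1, Nkx2-3 and Nkx3-2. Because probes differ in how strongly they bind, signals are compared between arrays for 1 probe and never between probes.

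Signals are the background-subtracted processed signals of the scanner software, in array units. A level is the log2 of that signal minus the array's 75th percentile, which lay between 636 and 741 units, and a difference is the mean level of the knockout minus that of the control, in log2 units. The software also marks each spot as well above background or not, here also called detected, and 57.4% to 67.1% of probes were so marked per array. On the 8 arrays the lowest signal so marked was between 16.0 and 37.6 units. All 8 arrays lay on 1 slide and were read in 1 scan. Slide row 1 held 1 control array and 3 knockout arrays, and slide row 2 held 3 control arrays and 1 knockout array.

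The labels were first set against the targeted gene and the tissue. The Rfx6 probe was well above background on all 8 arrays, at a level of -3.14 ± 0.40 in the control and -2.76 ± 0.56 in the knockout (SD, n = 4 each), with a difference of 0.38 (SE 0.29, limma adjusted p = 0.503). Whether this probe lies in the deleted part is not given, so it does not check the genotypes. All 10 small intestine epithelium markers chosen for this purpose, among them the homeobox gene Cdx2 and the brush border gene Vil1, were well above background on all arrays. Their summed signal, as a multiple of the 75th percentile, was 1880 to 2152 in the control and 1328 to 1578 in the knockout. Of the 10, 4 were called lower, beside 2.59% of all genes tested: Lct, Fabp1, Apoa4 and Fabp2. These 4 had the highest levels of the list and made up most of the sum, so its fall largely repeats their calls. The median difference of the list was -0.23. Cdx2 and Vil1 were not called, at -0.24 and -0.11.

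Nkx6-3 was clearly detected in every control intestine and low in every knockout intestine. Probe 1 gave 242, 416, 362 and 470 units on control arrays 1 to 4, and 140, 22.9, 21.96 and 19.4 units on knockout arrays 1 to 4. The lowest control array lay above the highest knockout array, so the groups did not overlap, and within the knockout array 1 stood far above the other 3. In mean signal the control reached 372 ± 97.4 units and the knockout 51.0 ± 59.2 units (SD, n = 4 each). In level the means were -0.90 ± 0.38 and -4.34 ± 1.29, a difference of -3.44 (SE 0.56), or 10.9-fold lower in the knockout. Of the 23282 genes tested across the array, 10 had a difference at or below that of Nkx6-3, itself included. Since the group was chosen on this same contrast, that place is a description and carries no weight as evidence. It also rests on knockout signals near the detection limit.

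Knockout array 1 kept 37.5% of the mean control signal of Nkx6-3, and knockout arrays 2 to 4 averaged 5.75% of it. The last 3 were close together, at a mean level of -4.99 ± 0.07 (SD, n = 3). They were also close to the limit of the measurement, since each lay only 0.15 to 0.28 log2 units above the lowest signal marked well above background on its array. Without knockout array 1 the difference was -4.09 (SE 0.20), or 17.0-fold. The level of array 1 minus the mean of the other 3 was 2.58 log2 units, which ranks 28th among the 23282 genes tested.

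Knockout array 1 was also the only knockout array in slide row 2. In row 1 the single control array was at -1.45 and the 3 knockout arrays averaged -4.99, a difference of -3.54. In row 2 the 3 control arrays averaged -0.72 and the single knockout array was at -2.41, a difference of -1.69. With the row as a block the difference was -2.61 (SE 0.35). The difference was thus negative in both rows and about as large in row 1 as over all arrays, but within row 2 it rests on array 1 alone, and a row effect on that array and a property of that sample cannot be told apart.

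**Figure D1:**
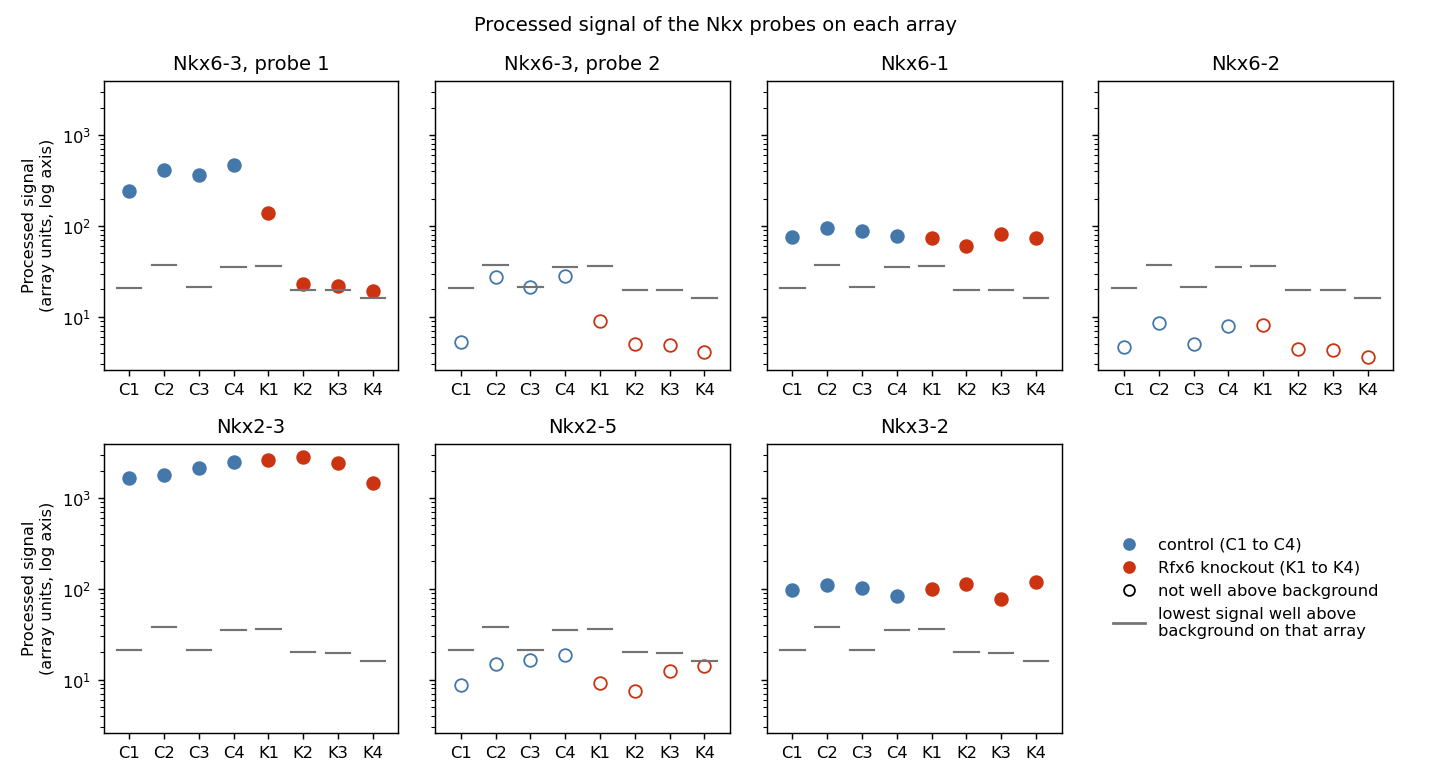
Processed signal (array units, log axis) of the 7 Nkx probes on control arrays C1 to C4 and Rfx6 knockout arrays K1 to K4; filled points are well above background, open points are not, and the grey lines give the lowest signal well above background on each array. For Nkx6-3 probe 1 the 4 control points lie between 242 and 470 units and the knockout points at 140 and between 19.4 and 22.9 units, while the points of Nkx6-1, Nkx2-3 and Nkx3-2 overlap between the groups.

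Nkx6-3 probe 2 never reached the detection mark. Its values were 5.31, 27.1, 21.1 and 28.5 units in the control and 9.06, 4.98, 4.92 and 4.12 units in the knockout. Values this low have no order, so this probe gives no fold, and it neither adds to nor takes from the difference seen with probe 1.

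Nkx6-1, the closest well-studied relative of Nkx6-3 and a regulator of insulin-producing beta cells of the pancreas, was detected on every array at a low signal. It gave 75.6, 95.3, 89.0 and 78.1 units in the control and 73.2, 59.7, 81.9 and 73.8 units in the knockout. The groups overlapped. The mean signals were 84.5 ± 9.24 and 72.2 ± 9.20 units (SD, n = 4 each), and the difference in level was -0.27 (SE 0.12). Both slide rows gave a negative value, -0.12 in row 1 and -0.38 in row 2.

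Nkx6-2, known for its work in oligodendrocytes and the developing spinal cord, was detected on none of the 8 arrays. Its signals ran from 3.60 to 8.47 units over the 8 arrays, all below the lowest signal that counted as detected. Within the Nkx6 group, then, these arrays measured 2 of 3 genes.

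Nkx2-3 is a marker of the mesenchyme of the midgut and hindgut and of the spleen, where it is needed for the vessel wall molecule Madcam1. Its signal was 1671, 1809, 2141 and 2484 units in the control and 2637, 2836, 2447 and 1455 units in the knockout. Knockout arrays 1 and 2 were the highest of the 8 and knockout array 4 was the lowest, so the groups overlapped fully. The mean levels were 1.57 ± 0.25 and 1.71 ± 0.36 (SD, n = 4 each), a difference of 0.14 (SE 0.19), with 0.33 in slide row 1 and 0.19 in row 2.

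Nkx3-2 (Bapx1) shapes the stomach and pylorus mesenchyme and the spleen bud. It gave 96.2, 109, 102 and 84.0 units in the control and 98.6, 113, 77.0 and 118 units in the knockout. The knockout arrays held the lowest value and the 2 highest. The mean levels were -2.79 ± 0.18 and -2.79 ± 0.34 (SD, n = 4 each), and the difference of 0.0016 (SE 0.17) was far smaller than the spread within either group. Its sign differed between the slide rows, 0.030 in row 1 and -0.11 in row 2.

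Nkx2-5, a heart regulator that also marks the pyloric sphincter and spleen mesenchyme, stayed below the detection mark on all 8 arrays, at 7.52 to 18.52 units. Of the 6 genes, 4 thus passed the filter on dim probes and 2 did not. In the fit over all 23282 genes, 1 of the 4 was called lower (Nkx6-3) and 3 were not called, where 2.59% of all genes tested were called lower and 2.33% higher. Under median centring these counts of 602 lower and 543 higher genes became 253 and 545. All 4 knockout levels lay below all 4 control levels in 9.23% of the genes tested and above them in 5.41%. Since the choice of the genes used this contrast, nothing is read from these counts.

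**Figure D2:**
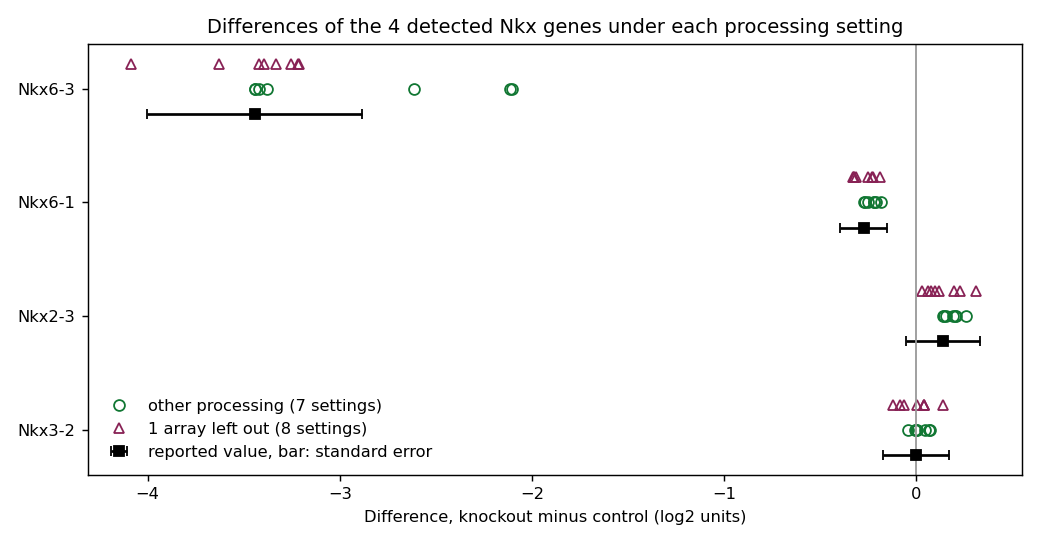
Difference in level, knockout minus control (log2 units), of the 4 detected Nkx genes; squares with bars are the reported values with their standard errors, circles other ways of processing and triangles fits with 1 array left out. Nkx6-3 lies between -4.09 and -2.10 in all 15 alternatives, Nkx6-1 between -0.33 and -0.18, Nkx2-3 between 0.03 and 0.31, and Nkx3-2 falls on both sides of 0.

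Among the genes whose profile over the 8 arrays came closest to that of Nkx6-3 were Reg1, F12, Iapp and Pyy. Likeness was the root mean square difference between levels after each gene's own mean over the 8 arrays was taken away. It was chosen to compare patterns and is a description over 8 samples that include both groups, so any gene with a similar difference will score well. It was 0.42 log2 units for Reg1, 0.53 for F12, 0.69 for Iapp and 0.74 for Pyy. The value for F12 was computed from knockout levels below background, so its pattern within the knockout is not a match.

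Reg1, a secreted lectin of the pancreas and the regenerating gut, stood at levels of 2.56, 3.15, 3.73 and 3.78 on control arrays 1 to 4 and at 1.61, -1.08, 0.16 and -0.96 on knockout arrays 1 to 4. As with Nkx6-3, knockout array 1 was the highest of its group and remained below every control array. Reg1 fell by 3.37 log2 units (SE 0.57, limma adjusted p = 0.0117).

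Iapp encodes amylin, a peptide hormone of islet beta cells and gut endocrine cells. Its levels were -0.74, -0.95, -0.82 and -1.27 in the control and -3.82, -4.57, -4.65 and -4.29 in the knockout. The groups were far apart and array 1 was again the highest knockout array, by a small margin. Iapp fell by 3.39 log2 units (SE 0.19, limma adjusted p = 2.9e-05).

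F12, which encodes coagulation factor XII, was detected on each of the 4 control arrays and on 0 of the 4 knockout arrays. Its knockout values have no order and give a bound. F12 was at least 4.97-fold lower in the knockout (limma adjusted p = 0.0033).

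Pyy, the peptide YY hormone of ileal and colonic endocrine cells, shared the isolated knockout array 1 but not the separation of the groups. Its levels were 1.16, 0.35, 1.38 and 1.07 in the control and 1.41, -2.73, -2.78 and -2.56 in the knockout. Array 1 lay above every control array, the groups overlapped, and Pyy was not called (difference -2.65, SE 0.87, limma adjusted p = 0.127).

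**Figure D3:**
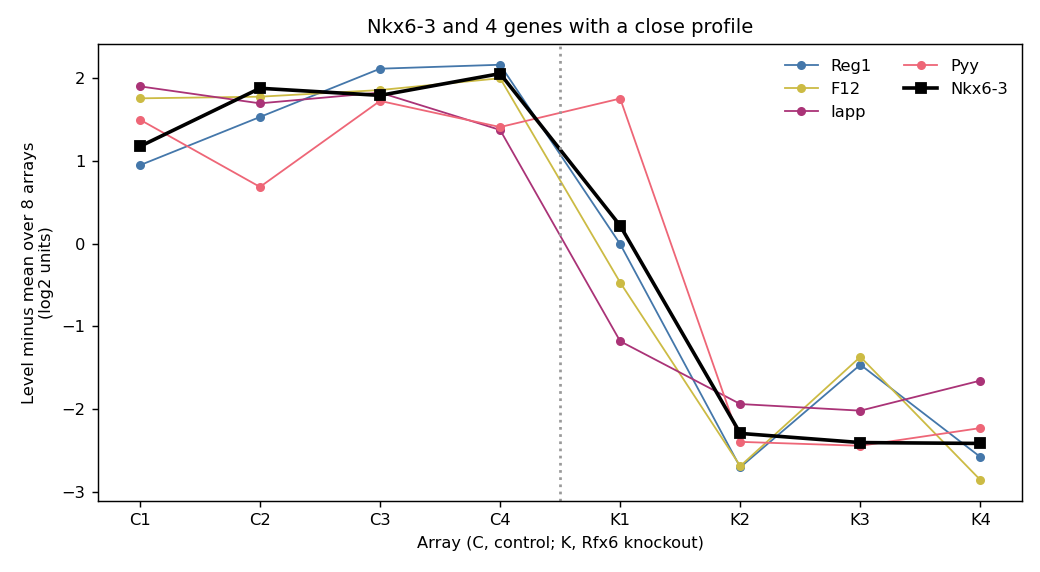
Levels of Nkx6-3 and of 4 genes with a close profile on each array, each minus its own mean over the 8 arrays (log2 units); C, control and K, Rfx6 knockout. Nkx6-3 (black squares) and Reg1 run together, with knockout array 1 between the control arrays and the other 3 knockout arrays, whereas Pyy is at its control level on knockout array 1 and the F12 values in the knockout are below background.

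Genes of the setting in which Nkx6-3 is known were examined next, in lists drawn from general knowledge. Some genes stand in more than 1 list, so the calls of the lists are not separate results. Sst is counted here and among the enteroendocrine hormones, and Pdx1 here and among the islet genes. Among 13 antral G and D cell genes 10 were tested, 2 fell and none rose, with a median difference of -0.14 beside -0.05 over all genes tested. Over all genes tested 2.59% were called lower and 2.33% higher, shares to be read beside the calls in every list. Of the 10 antral genes tested, 6 had an unadjusted limma p under 0.05, beside 20.5% of all genes tested. These 6 did not move in 1 direction. Neurog3 was higher by 0.46 and Hhex by 0.36, both named after their values were seen, and the rest of the 6 were lower. Without knockout array 4, 4 genes of this list were called, counted in either direction. Sst, the somatostatin gene of D cells, stood at 1.94 ± 0.13 in the control (SD, n = 4) and was detected on 1 of the 4 knockout arrays. It was called lower (limma adjusted p = 7.5e-08), and its size is not given because the other 3 knockout values are below background. Gast, the gastrin gene of G cells, had a difference of -0.16 (SE 0.11, limma adjusted p = 0.441), and is named here after its values were seen. Pdx1, a homeobox gene of the antrum, duodenum and pancreas, was also looked up afterwards. Its levels were -2.56 ± 0.32 and -3.65 ± 0.58 (SD, n = 4 each), and its difference of -1.09 (SE 0.28) did not pass (limma adjusted p = 0.0628).

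Among 15 islet beta cell genes, the setting of Nkx6-1, 11 were tested, 5 fell and none rose, with a median difference of -0.78. Over all genes tested 2.59% were called lower. Of the 11 islet genes, 7 had an unadjusted limma p under 0.05, beside 20.5% of all genes tested. Without knockout array 2, 3 of the 11 were called. Besides Iapp, the 5 that fell included the insulin genes Ins1 and Ins2. Ins1 was called lower (limma adjusted p = 0.0093) and was detected on 3 of the 4 knockout arrays. Ins2 fell by 0.78 (SE 0.15, limma adjusted p = 0.0232). The peptide gene Ucn3 was at least 3.27-fold lower (limma adjusted p = 0.0013). The fifth, the glucose transporter gene Slc2a2, named after its values were seen, is also a gene of absorptive enterocytes. Nkx6-1 itself differed by -0.27 beside these.

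The pyloric and visceral mesenchyme lists held few calls. Among 12 pyloric sphincter and stomach mesenchyme genes, the setting of Nkx3-2 and Nkx2-5, 10 were tested and none was called (limma), with a median of 0.29; 4 had an unadjusted p under 0.05, a share to be read beside the 20.5% of all genes tested. Barx1, the regulator that marks stomach mesenchyme and named after its values were seen, was detected on no array. Among 13 visceral mesenchyme genes, the setting of Nkx2-3, 12 were tested and 1 rose, with a median of 0.23. That gene was Bmp2, a signalling ligand, which was higher by 0.39 (SE 0.09, limma adjusted p = 0.0446), and it was no longer called when any 1 of the 8 arrays was left out. Madcam1, looked up because Nkx2-3 acts on it, had a difference of 0.23 (limma adjusted p = 0.694).

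Other homeobox genes of the NK class were examined in the same way. Of 8 other Nkx genes 3 were tested, with a median of -0.02. Named after their values were seen, these were Nkx1-1 at -0.07 (SE 0.11), the endocrine regulator Nkx2-2 at -0.02 (SE 0.12) and Nkx2-6 at 0.49 (SE 0.43). Of 23 further NK-like genes 22 were on the array and 12 were tested, with a median of 0.08, and 8 were detected on no array. None of these other Nkx or NK-like genes passed the adjusted limma threshold of 0.05; at an unadjusted p under 0.05 there were 0 of the 3 Nkx and 4 of the 12 NK-like genes, beside 20.5% of all genes.

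**Figure D4:**
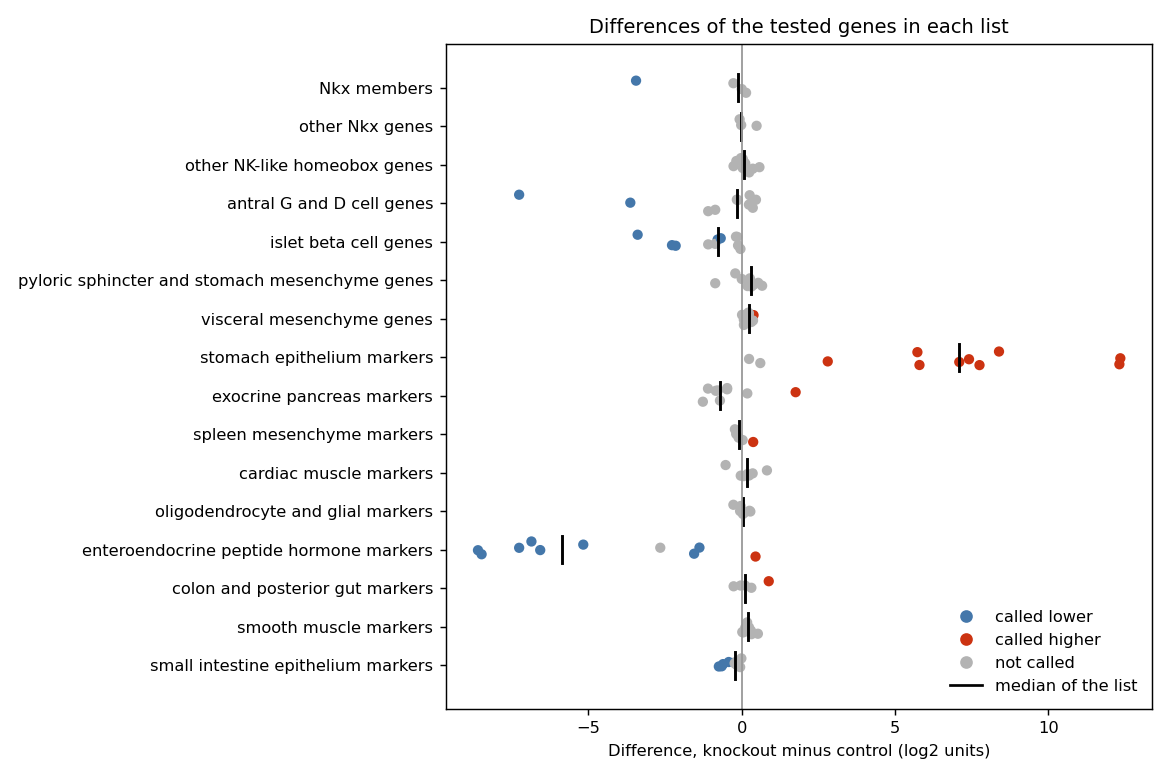
Difference in level, knockout minus control (log2 units), of every tested gene in the Nkx group and in each list, coloured by the call of the limma fit, with black bars at the medians; values of genes below background in 1 group are fitted and are not bounds. Nkx6-3 lies apart from the other 3 tested Nkx genes, the medians of the pyloric, visceral mesenchyme and smooth muscle lists lie between 0.22 and 0.29, and the stomach epithelium and enteroendocrine hormone lists lie farthest from 0.

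Markers of other cells that the samples could hold moved as follows beside the Nkx genes, as summed signals relative to the 75th percentile. Of 12 stomach epithelium markers 11 were tested and 9 rose, beside 2.33% of all genes tested. The median of these markers was 7.09, or 6.11 with genes absent from the control set at their bounds. Their sum was 0.797 to 5.64 in the control and 389 to 723 in the knockout, highest on knockout array 4 at 723 and 698 on array 1. The gastrokine gene Gkn2 was at least 2102-fold higher (limma adjusted p = 4.1e-07), the intrinsic factor gene Cblif at least 93.5-fold (limma adjusted p = 1.1e-06) and Vsig1 at least 68.9-fold (limma adjusted p = 2.5e-05). The trefoil gene Tff1 was called higher (limma adjusted p = 0.0030), at levels of 8.26 to 9.08 in the knockout. It was detected on only 2 of the 4 control arrays, so no size is given. The stomach marker sum in the knockout was mostly Tff1, so its order among the arrays says little of the other markers. Nkx6-3, a gene of the distal stomach, was thus low in the same 4 samples in which these stomach markers were high. Whether the content of stomach-like tissue had a part in the Nkx6-3 values was not tested.

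Of 10 enteroendocrine peptide hormones 8 fell and 1 rose, beside 2.59% and 2.33% of all genes tested. The median of these hormones was -5.87. Their sum was 186 to 222 in the control and 46.0 to 55.9 in the knockout, with knockout array 1 the lowest at 46.0. Gip was at least 172-fold lower (limma adjusted p = 7.5e-08), Gcg at least 111-fold lower (limma adjusted p = 8.0e-09), and Ghrl fell by 6.85 (SE 0.09, limma adjusted p = 3.0e-09). The sum in the knockout was mostly secretin (Sct, looked up afterwards), at a mean level of 5.38, and says little of the other hormones. The mean level over the list was -1.78 on knockout array 1 against -2.11 to -2.03 on the other 3. Array 1 was highest in this mean only through Pyy, at 1.41 there against -2.78 to -2.56. The mean also holds values below background, since Gip and Gcg were detected on no knockout array. It does not show that hormones other than Pyy were higher on array 1.

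Exocrine pancreas markers differed from array to array. Their sum was 29.7 to 93.0 in the control and 19.9 to 55.1 in the knockout, and the highest knockout value was that of array 1, with 19.9 to 27.7 on the other 3. Of 11 genes 9 were tested, with a median of -0.71, and 1 was called, Bhlha15, which was higher by 1.76 (SE 0.21, limma adjusted p = 0.0025). Bhlha15 moved against most of the list. Among the other tested genes only Cela1 had a positive difference, 0.18, and the lowest were Prss1 at -1.27 and Cela2a at -1.10. Cela1, Prss1 and Cela2a were not called and are named after their values were seen. The 9 tested genes, the amylase gene Amy2a5 among them, were detected on all 8 arrays, and the other 2, Pnlip and Ptf1a, on none; these 3 are named after their values were seen. Amy2a5 had the highest mean levels of the 9, at 5.11 in the control and 4.27 in the knockout, so the sum is weighted to it. The mean level over the 9 was also highest on array 1 among the knockout arrays, at 1.03 against -0.40 to -0.07. The highest control sum, 93.0, was on control array 1, which had the lowest Nkx6-3 signal of its group. The part of pancreatic RNA in the Nkx6-3, Reg1 or Iapp values was not tested.

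The remaining lists moved less, and their counts at an unadjusted p under 0.05 stand beside the same 20.5%. Smooth muscle markers, 10 of 10 tested and none called by limma (1 at an unadjusted p under 0.05), had a median of 0.22 and sums of 320 to 394 in the control and 367 to 451 in the knockout. Cardiac muscle markers, which matter for Nkx2-5, had 7 of 10 tested, none called (1 unadjusted), a median of 0.18 and sums of 7.38 to 11.7 and 8.97 to 11.9. Oligodendrocyte and glial markers, which matter for Nkx6-2, had 7 of 10 tested, none called (3 unadjusted), a median of 0.04 and sums of 7.75 to 9.30 and 9.37 to 10.14, with Olig1 and Olig2, named after their values were seen, detected on no array. Among 7 spleen mesenchyme markers 5 were tested and 1 was called (1 unadjusted), with sums of 3.98 to 4.87 and 4.13 to 4.81. The called gene was Nr2f2, higher by 0.37 (SE 0.08, limma adjusted p = 0.0405). Among 8 colon and posterior gut markers 5 were tested and 1 was called (3 unadjusted), with sums of 21.2 to 24.7 and 19.0 to 23.7. The called gene here was Aqp4, higher by 0.88 (SE 0.14, limma adjusted p = 0.0080).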

How the data were processed

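The 8 scanner files, 1 per sample, were used. Amplification started from 100 ng of RNA, labelled with cyanine 3, per the labels' protocols. Per the file headers, Feature Extraction 10.10.1.1 gave a background-subtracted processed intensity per spot on an mm9 grid, not scaled between arrays; the authors' deposited series matrix holds an intensity without background subtraction. Control spots (3671 of 62976) and outlier spots (153 to 355 per array) were left out, and spots of a probe averaged. A probe was kept if every array of the control or every array of the knockout marked it well above background (31668 probes), and the brightest probe stood for each gene (23282). Levels were fitted with limma 3.58.1 in R 4.3.3 (two-sided, Benjamini-Hochberg over all genes, threshold 0.05), which was tested on simulated data. Of 55681 probes, 26320 names matched a RefSeq symbol (GRCm38.p6 table), 492 a synonym and 2863 an accession; 26006 kept the file's name. An "at least" fold sets the detected group's mean against, on each array of the other group, the lowest signal well above background or the probe's own if higher. Array number limits the precision. Same-numbered arrays did not deviate together (correlations -0.07, -0.17, 0.07 and -0.41), so numbers were not used to pair samples. These few correlations cannot show whether samples shared litters. The genes and lists were chosen with earlier results of these data known; the small intestine list was added last. Named were the 6 genes, up to 4 called genes per list by size, the 5 closest profiles and Rfx6, with others stated as chosen afterwards; a gene that this rule named is not reported here. Alternatives covered background, scaling, deposited values, blocks, filters, probe choice and each array left out.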

Additional observations from a re-analysis of the deposited data

Results flagged for a closer look

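In groups of 4 arrays, a single array that stands apart from the other 3 was looked for in 92 groups of values with Dixon's criterion, which chance meets in about 1 group in 20, or 4.6 of 92. It was met in 3. Nkx6-3 on knockout array 1 was at a level of -2.41, against -5.03 to -4.91 on the other knockout arrays. Pyy on the same array was at 1.41, against -2.78 to -2.56. Nkx6-3 was chosen on these data, and Pyy was named for its likeness to Nkx6-3 over all arrays, knockout array 1 included. Their flags on that array are therefore not separate results, and the chance count cannot be used to weigh them. Sst on control array 2 was at 1.75, against 1.98 to 2.03 on the other control arrays.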

How the results depend on the processing

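The difference of Nkx6-3 was negative in all 15 alternatives. It was -2.11 with normexp background correction (offset 50) and -2.10 with the deposited series matrix; both keep background or an offset in the signal, which by construction shrinks differences of dim probes. It ranged from -4.09 to -3.21 when each array was left out in turn. With the replicate number as a block it stayed at -3.44 and the calls were 148 lower and 268 higher genes. Over all genes, 253 were lower with median centring, and without the filter on dim probes 203 were lower and 298 higher, where more genes were tested. With single arrays omitted, the number of lower genes ranged from 233 to 592 and that of higher genes from 349 to 517; the cause was not tested. The lowest counts were 233 and 349 without knockout array 2; knockout array 1 gave 245 and 354, control array 1 gave 241 and 355, and controls 3 and 4 gave 313 and 359 lower genes. Calls in the islet list were 3 without the filter and 3 to 6 with 1 array left out (3 without knockout array 2), those in the antral list 2 to 4 and in the pyloric list 0 to 1, both highest without knockout array 4. In the visceral list there were 0 without the filter and 0 with any 1 array left out. Nkx3-2 was negative in 5 and positive in 10 of 15 alternatives, all within its spread. The limit for Nkx6-3 is the signal: knockout arrays 2 to 4 lay barely above background, so the size of the difference there is uncertain.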

Other observations

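Some Nkx genes outside the 6 gave a signal on single arrays, and these were picked after their values were seen. Nkx2-4 gave 255 units on control array 2 and 1394 units on control array 4, was well above background on knockout array 3 too at 28.9 units, and lay between 4.09 and 10.005 units on the other 5 arrays. Nkx2-6 gave 152 units on knockout array 2 and 32.4 to 48.7 units elsewhere. Nkx2-1, a gene of lung and thyroid, was detected on no array.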
